A study of Rattus norvegicus with 32 samples.

Results

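Expression of 10 serotonin receptor genes (Htr1a, Htr1b, Htr1d, Htr1f, Htr2a, Htr2c, Htr3a, Htr4, Htr6 and Htr7) was followed in 32 RNA-seq libraries of rat brain. The members were taken by gene name from the count files, and all 10 were found among the 28914 gene names counted. The study compared methamphetamine (METH), a psychostimulant that releases dopamine and other monoamines, with saline (Sal) in adult male Sprague-Dawley rats, an outbred strain, and no genetic change was involved. METH was given at 10 mg/kg in 4 intraperitoneal injections, 2 h apart, and the controls received saline in the same way. The nucleus accumbens (NAc), the dentate gyrus (DG), Ammon's horn of the hippocampus (CA) and the subventricular zone (SVZ) each gave 4 Sal and 4 METH libraries from total RNA depleted of ribosomal RNA. NAc and SVZ were punched from anterior slices, and DG and CA were scooped from the posterior hemispheres. Libraries are named by region, treatment and replicate number (DG Sal 3). The labels do not state that the 4 libraries of a group came from separate animals, so p-values measure the spread between these libraries, which may be technical. Each brain gave several regions, so libraries of different regions may share a rat. Library numbers in the file headers recur between regions, and in DG they are crossed: DG Sal 1 and 2 carry the numbers 20 and 21 that mark METH libraries in NAc and CA, and DG METH 1 and 2 carry 14 and 15, which mark Sal libraries there. Whether libraries were exchanged cannot be told from the labels, which were followed here, and every DG value of METH against saline holds only if they are right. SVZ METH 1 and 2 carry one header number and SVZ METH 3 and 4 another, so these 4 libraries may stand for 2 samples. All SVZ libraries came from a sequencing run that held no other region, so run and region cannot be told apart for SVZ. In NAc, DG and CA the runs read from the file headers were divided unevenly between Sal and METH. Run and treatment are thus partly mixed there, and in DG the only run with both treatments had DG Sal 3 as its Sal library.

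Serotonin is made by neurons of the raphe nuclei, whose axons reach nearly all of the forebrain, and its receptors are made by the cells that receive it. The Htr1 receptors couple to Gi/o proteins and lower cAMP, the Htr2 receptors couple to Gq and phospholipase C, and Htr4, Htr6 and Htr7 couple to Gs and raise cAMP. Htr3a is a subunit of the only serotonin-gated ion channel. Htr1a is known to be abundant on hippocampal pyramidal and granule neurons, Htr1b, Htr1d and Htr6 are found in the striatum, and Htr2c is made by the choroid plexus as well as by neurons.

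The values are reads per gene. Total counts ranged from 11094002 to 21869773 per library, and levels are given in CPM, read counts scaled by the upper-quartile effective library size, so that 1 read was worth 0.0442 to 0.0934 CPM. The 48 pairs of libraries of the same group differed by 16.4 to 191 times the counting noise (chi-square per gene), so no library was a copy of another. SVZ METH 1 and 2, of one header number, differed by 133 times the noise, and SVZ METH 3 and 4 by 115. Pairs of SVZ METH libraries with different numbers differed by 16.4 (2 and 4) to 144 (2 and 3). What the shared numbers mean was not tested. Several libraries stood apart by marker genes of brain cells. DG Sal 3 had a summed level of 8.71 CPM for 6 markers of glutamatergic neurons of the pallium (Neurod2 at 0 reads), against 1360 to 2680 CPM in the other 15 DG and CA libraries, and 1669 CPM for 8 markers of striatal medium spiny neurons, against 159 to 485 CPM. NAc METH 3, SVZ Sal 1, SVZ METH 2 and SVZ METH 4 had striatal sums of 152, 277, 204 and 589 CPM, below the 1356 to 8210 CPM of the other 12 NAc and SVZ libraries, and the SVZ libraries among them had thalamic sums of 1103 to 1822 CPM, against 84.8 to 468 CPM in the other 5 SVZ libraries. Choroid plexus markers summed to 2349 CPM in DG Sal 4, 6494 in DG METH 3, 2387 in CA Sal 2 and 8336 in SVZ METH 3, and to 420 CPM or less in the other 28. DG Sal 4 also held 39072 reads of Tph1, the tryptophan hydroxylase of the pineal gland, against 80 at most elsewhere. Results are therefore given with and without the 5 libraries whose striatal or pallial sums stood apart from their region. In SVZ this choice keeps the libraries rich in striatal markers. Dentate granule markers did not set DG apart in saline, with median sums of 206 CPM in DG, 382 in CA, 265 in NAc and 310 in SVZ. After METH the median was 463 CPM in DG and 238 in CA. In saline this list could not tell DG from CA. The ependymal marker Foxj1 and the endothelial marker Pecam1 were not analysed here.

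**Figure D1:**
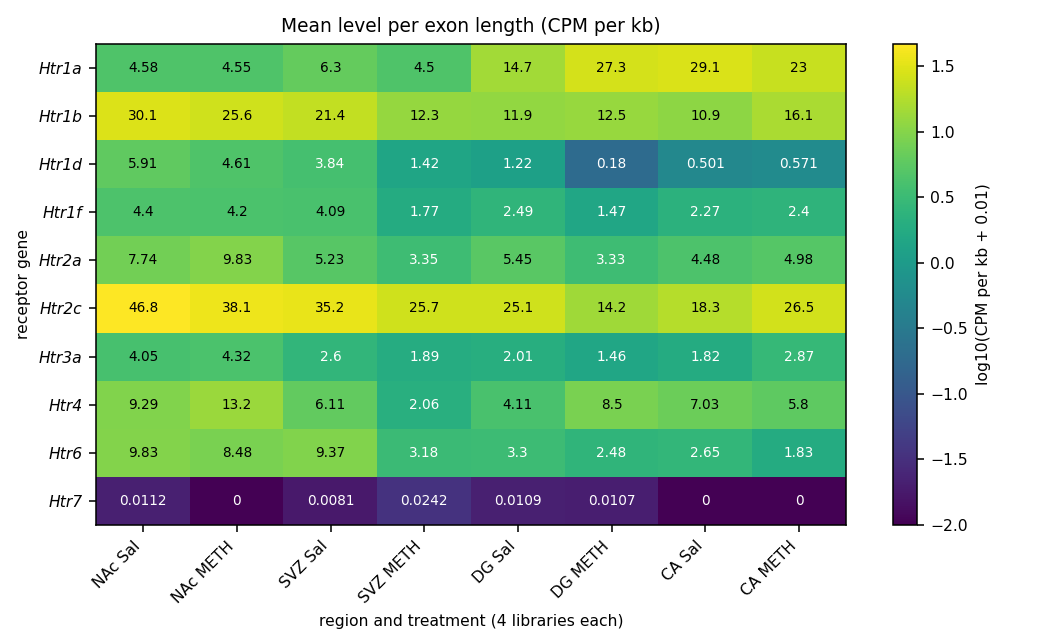
Mean level per exon length of the 10 receptor genes (vertical axis) in the 8 groups of region and treatment (horizontal axis, 4 libraries each), printed in each cell as CPM per kb and coloured on a log10 scale. Htr2c was the highest receptor in 6 groups and Htr1a in DG METH (27.3) and CA Sal (29.1), while Htr7 did not pass 0.0242.

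Levels of different receptors can be compared only per exon length. In NAc Sal the mean level per length was 46.8 CPM per kb for Htr2c and 30.1 for Htr1b, and the other 8 receptors lay between 0.0112 (Htr7) and 9.83 CPM per kb (Htr6). In CA Sal the order began with Htr1a at 29.1 CPM per kb, followed by Htr2c at 18.3 and Htr1b at 10.9, and Htr1d stood at 0.501. Htr1a thus stood in the seventh place in NAc Sal and in the first in CA Sal, as the heat map of levels per length shows. Ranks were read from group means, and no test was made between receptors.

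**Figure D2:**
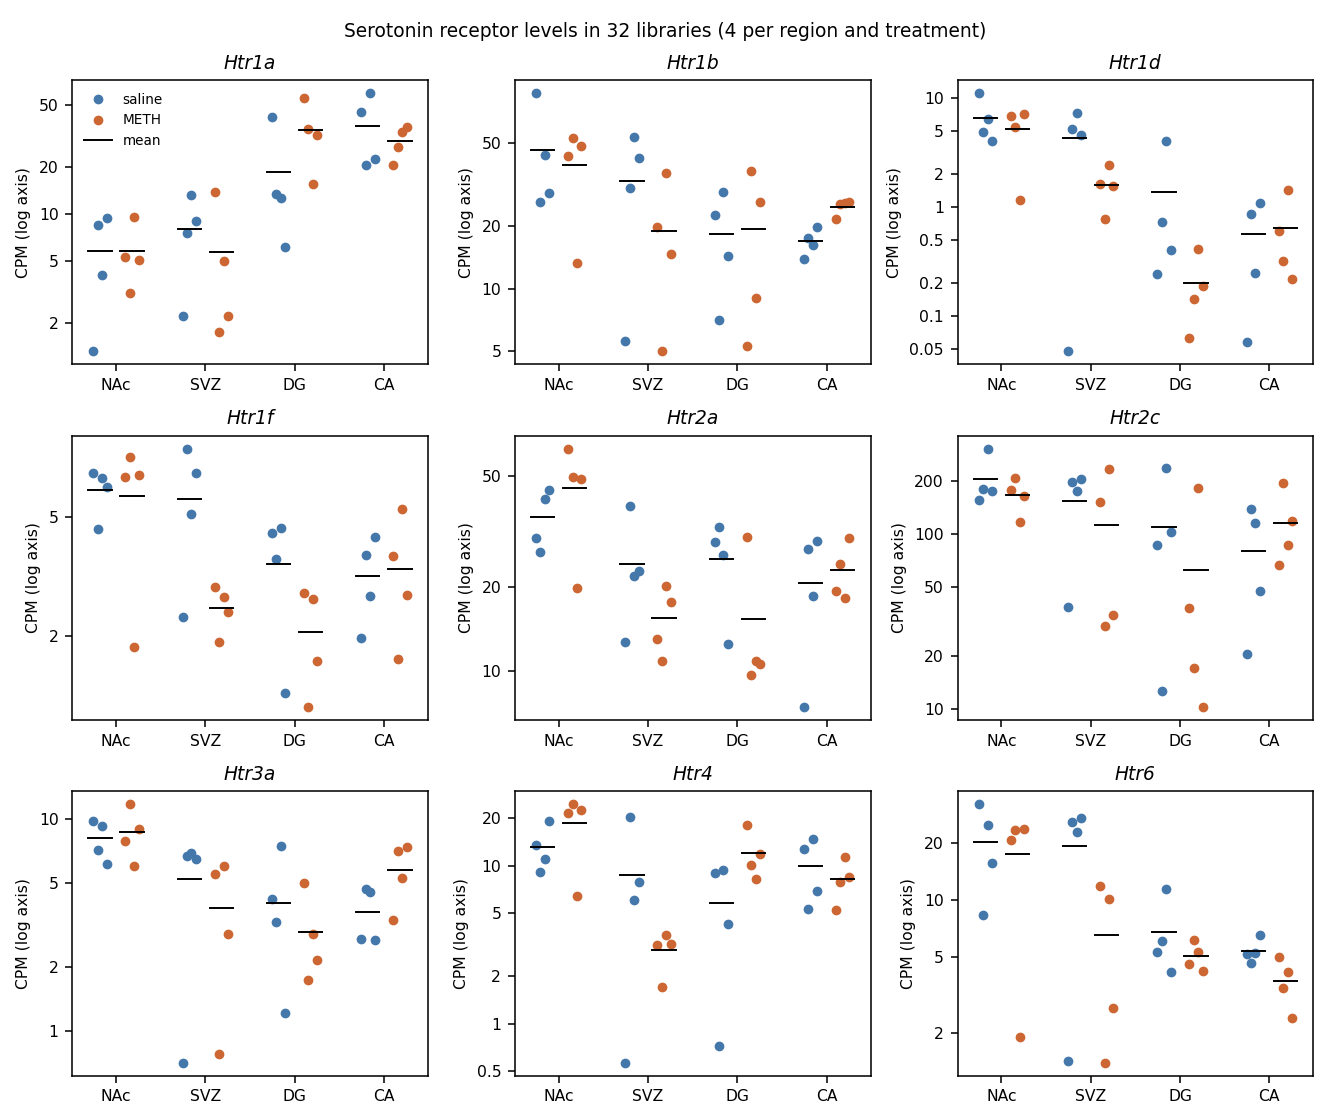
Level of 9 receptors in each of the 32 libraries (CPM on a log axis) by region, with saline in blue, METH in orange and group means as black bars. Htr1a lay higher in DG and CA and Htr1d and Htr6 higher in NAc and SVZ, while the saline and METH points of a region overlapped except for Htr1b in CA.

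Htr1a, the Gi/o-coupled receptor that hyperpolarizes hippocampal neurons and also serves as the autoreceptor of raphe neurons (chromosome 2, 36246628 to 36247896 in rn6, plus strand), was the receptor with the clearest hippocampal excess. In saline it measured 44.8, 20.7, 59.6 and 22.5 CPM in CA and 42.1, 13.5, 12.7 and 6.11 CPM in DG. In NAc Sal it measured 1.31, 8.47, 4.09 and 9.40 CPM, and in SVZ Sal 2.21, 7.58, 13.2 and 8.98 CPM. The CA libraries were all above the NAc and SVZ libraries, while DG overlapped both SVZ and NAc. The means fell in the order CA, DG, SVZ and NAc. After METH the 8 DG and CA libraries (55.5, 35.2, 15.5 and 32.3 CPM in DG, 20.5, 26.8, 33.6 and 35.9 CPM in CA) lay above all 8 NAc and SVZ libraries (5.32, 3.12, 9.59 and 5.07 CPM in NAc, 13.9, 1.75, 4.96 and 2.23 CPM in SVZ). Such a separation upwards was found in 3.02% of all genes tested.

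Htr1b, a Gi/o-coupled receptor on axon terminals (chromosome 8, 89129453 to 89130991, minus strand), was highest in mean in NAc. It measured 86.7, 26.1, 43.7 and 28.6 CPM in NAc Sal and 5.60, 30.3, 53.2 and 42.6 CPM in SVZ Sal, against 22.6, 7.07, 29.2 and 14.4 CPM in DG Sal. In CA Sal it measured 13.9, 17.5, 16.2 and 19.8 CPM, and in CA METH 21.6, 25.6, 25.9 and 26.0 CPM. Htr1b in CA was the only one of the 34 tests of a receptor within a region in which the 4 METH and 4 Sal libraries did not overlap, where 2.57% of all genes tested in CA had METH libraries all above Sal. NAc METH libraries held 43.3, 52.5, 13.3 and 48.3 CPM, DG METH 5.33, 36.5, 9.02 and 26.2 CPM and SVZ METH 19.8, 5.0, 36.1 and 14.8 CPM, each overlapping its controls. Over all genes tested, METH libraries lay all above or all below Sal for 1.24% and 1.06% in NAc, 3.15% and 3.66% in DG, 2.57% and 1.88% in CA and 0.7% and 0.995% in SVZ.

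The letters before the start of Htr1d, Htr1f and Htr6 are shown because these receptors had the most similar levels over the libraries (Pearson's r of 0.81 to 0.86 between them). RefSeq promoter sequences were at hand for 6 of the 10 receptors (Htr1b, Htr1d, Htr1f, Htr2c, Htr6 and Htr7), each 250 bases before and 50 from the annotated start in build GRCr8, which differs from the rn6 of the counts. Capitals mark matches, on either strand, to TATAAA (core of the TATA box), GGGCGG (GC box), TGACGTCA (full cAMP response element), TGANTCA (AP-1 site), CANNTG (E-box) and the box of letters CCAAT. None of these motifs holds the letters of another whole, and the cAMP, AP-1 and E-box motifs read the same on both strands.
Htr1d (chr5:153939485-153939784, plus strand): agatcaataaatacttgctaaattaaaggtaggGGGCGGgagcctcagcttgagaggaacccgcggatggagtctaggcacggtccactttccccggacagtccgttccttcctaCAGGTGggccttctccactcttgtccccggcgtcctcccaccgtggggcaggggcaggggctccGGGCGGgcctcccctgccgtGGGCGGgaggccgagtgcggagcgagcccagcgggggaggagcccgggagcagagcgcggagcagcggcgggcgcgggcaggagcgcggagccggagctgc
Htr6 (chr5:156595098-156595397, minus strand): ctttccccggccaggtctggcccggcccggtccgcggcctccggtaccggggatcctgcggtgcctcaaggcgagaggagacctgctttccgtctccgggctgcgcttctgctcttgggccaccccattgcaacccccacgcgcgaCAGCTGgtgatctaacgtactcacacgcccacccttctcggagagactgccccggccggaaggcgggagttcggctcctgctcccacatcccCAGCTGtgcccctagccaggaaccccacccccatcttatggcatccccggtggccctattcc
Htr1f (chr11:16090616-16090915, minus strand): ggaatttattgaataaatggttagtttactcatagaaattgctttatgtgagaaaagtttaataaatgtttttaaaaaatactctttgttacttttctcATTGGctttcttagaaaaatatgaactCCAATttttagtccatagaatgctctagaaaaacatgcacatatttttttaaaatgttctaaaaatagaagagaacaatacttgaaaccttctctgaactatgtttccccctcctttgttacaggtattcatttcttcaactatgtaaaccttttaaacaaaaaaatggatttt
Htr1d held 3 GC boxes and 1 E-box, Htr6 held 2 E-boxes, and Htr1f held 2 CCAAT boxes, so no motif was in all 3. Among 33469 promoters of this length, 33.1% held the GC box, 72.1% the E-box, 37.5% the CCAAT box, 14.2% the TATA box core, 7.33% the AP-1 site and 1.83% the full cAMP response element. GC content was 69.3% in Htr1d, 68.0% in Htr6 and 26.3% in Htr1f, against a median of 51.7% over all promoters. Whether the annotated starts are true starts of transcription was not checked. That of Htr1f follows the letters ttgttacag, which can end an intron, so its stretch may not be a promoter. A match of letters is a description and no binding site was measured here.

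Htr1d, a Gi/o-coupled receptor close to Htr1b in pharmacology (chromosome 5, 154800226 to 154801350, plus strand), had the lowest median per exon length of the receptors with reads in every library (1.00 CPM per kb). In NAc Sal its mean of 5.91 CPM per kb lay above Htr1a (4.58), Htr1f (4.40) and Htr3a (4.05). Htr1d measured 11.2, 4.95, 6.44 and 4.05 CPM in NAc Sal and 6.91, 5.48, 1.16 and 7.21 CPM in NAc METH. In DG Sal it measured 0.241, 0.725, 4.10 and 0.402 CPM and in CA Sal 0.0580, 0.858, 0.247 and 1.09 CPM, which are 1 to 13 reads per library apart from 65 reads in DG Sal 3. DG METH held 0.0620, 0.145, 0.414 and 0.190 CPM and CA METH 0.601, 0.320, 1.43 and 0.216 CPM, so both hippocampal regions lay below most NAc libraries. In SVZ it measured 0.0471, 5.24, 7.36 and 4.63 CPM after saline and 1.62, 0.773, 2.43 and 1.58 CPM after METH. The high library of DG (DG Sal 3) and the low libraries of NAc (NAc METH 3) and SVZ (SVZ Sal 1 and SVZ METH 2) were among those whose striatal sums also stood apart from the rest of their region. Within DG alone and within CA alone the gene did not pass the filter on low counts, and METH was not tested there.

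Htr1f, a Gi/o-coupled receptor (chromosome 11, 1982113 to 1983513, minus strand), varied over a narrower range, from 1.16 to 8.47 CPM. NAc Sal held 7.02, 4.56, 6.78 and 6.29 CPM and SVZ Sal 2.31, 8.47, 5.13 and 7.03 CPM. DG Sal held 4.42, 3.63, 4.61 and 1.29 CPM and CA Sal 1.97, 3.74, 2.72 and 4.29 CPM, so the means fell in the order NAc, SVZ, DG and CA with neighbours that overlapped. After METH the SVZ libraries held 2.92, 1.91, 2.7 and 2.41 CPM, all below 3 of the 4 SVZ Sal libraries, while SVZ Sal 1 lay among them. NAc METH held 6.82, 7.93, 1.84 and 6.94 CPM, DG METH 2.79, 1.16, 2.67 and 1.64 CPM and CA METH 3.69, 1.68, 5.33 and 2.74 CPM.

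Htr2a, the Gq-coupled receptor on cortical and other forebrain neurons at which classical hallucinogens act (chromosome 15, 56666012 to 56735382, plus strand), had mean levels of 35.8 ± 8.65 CPM in NAc Sal, 25.2 ± 8.89 in DG Sal, 24.2 ± 11.1 in SVZ Sal and 20.7 ± 9.99 in CA Sal (SD, n = 4 each). Its METH libraries held 62.9, 49.8, 19.8 and 49.1 CPM in NAc, 13.1, 10.9, 20.2 and 17.7 in SVZ, 19.4, 24.2, 18.3 and 30.1 in CA and 30.4, 9.69, 10.9 and 10.6 in DG. DG METH 1 was thus near the DG controls (29.1, 33.0, 26.0 and 12.5 CPM), and the other DG METH libraries were below all of them. No neighbouring regions in the order of means were separate in saline.

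Htr2c, the Gq-coupled receptor whose messenger RNA is edited (chromosome X, 118084890 to 118318039, plus strand), had the highest level per length in 6 of the 8 groups and varied from 10.2 to 308 CPM. It measured 157, 182, 308 and 175 CPM in NAc Sal and 178, 210, 117 and 164 CPM in NAc METH. DG Sal held 86.7, 12.6, 240 and 103 CPM, DG METH 37.7, 17.2, 185 and 10.2 CPM, CA Sal 20.7, 138, 115 and 47.5 CPM and CA METH 66.4, 195, 86.7 and 118 CPM. SVZ Sal held 38.4, 198, 175 and 207 CPM and SVZ METH 152, 29.7, 235 and 34.6 CPM. The highest DG METH library (DG METH 3, 185 CPM) and the highest SVZ METH library (SVZ METH 3, 235 CPM) were those with choroid plexus sums of 6494 and 8336 CPM. The highest CA Sal library (CA Sal 2, 138 CPM) and the highest CA METH library (CA METH 2, 195 CPM) also had the highest choroid sums of their groups, 2387 and 388 CPM, and DG Sal 4 (choroid sum 2349 CPM) held 103 CPM. The highest DG Sal library (DG Sal 3, 240 CPM) had a choroid sum of 14.5 CPM. DG Sal 2, with a choroid sum of 201 CPM, held 12.6 CPM of Htr2c. The part of choroid plexus RNA in these levels was not tested. The gene spans 7 other annotated genes, 5 of them microRNAs (Mir448, Mir764, Mir1298, Mir1912 and Mir3552), but no exon of another gene overlapped the exons of any of the 10 receptors in the count files.

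**Figure D3:**
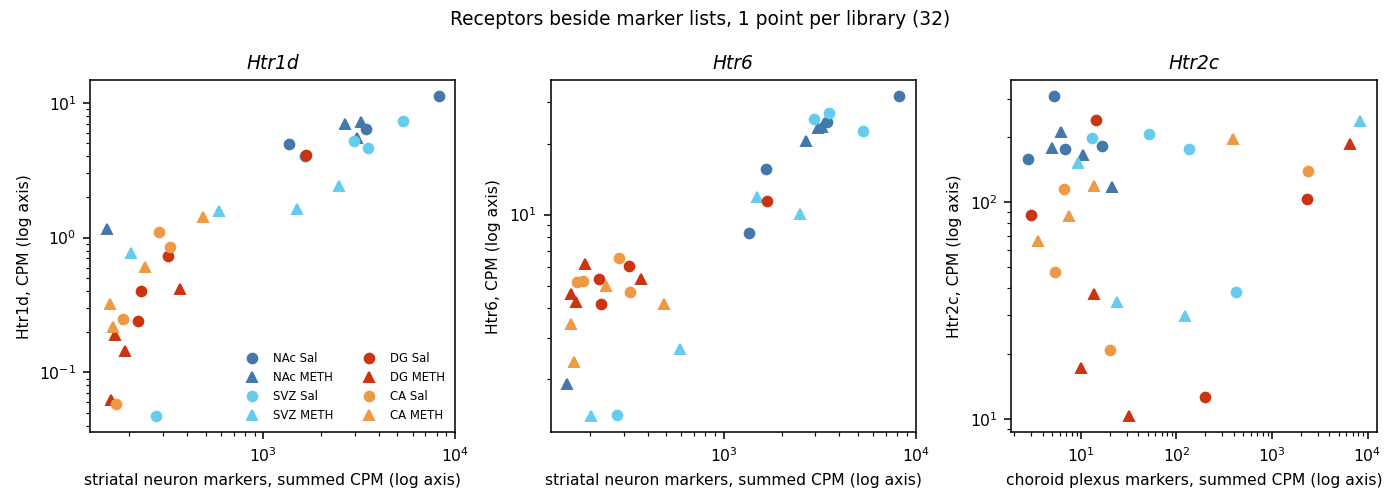
Htr1d and Htr6 (CPM, log axis) against the summed CPM of 8 striatal neuron markers, and Htr2c against the summed CPM of 8 choroid plexus markers, with 1 point per library and colour and shape for region and treatment. DG Sal 3 lay with the NAc and SVZ libraries at 1669 CPM of striatal markers, while Htr2c in the library with the highest choroid sum (8336 CPM) was 235 CPM against 308 CPM in NAc Sal 3.

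Htr3a, the subunit of the serotonin-gated channel found in a class of interneurons (chromosome 8, 53211438 to 53223804, minus strand), measured 9.79, 7.17, 9.31 and 6.14 CPM in NAc Sal and 2.73, 4.68, 4.50 and 2.69 CPM in CA Sal. SVZ Sal held 0.706, 6.69, 6.92 and 6.47 CPM, in which SVZ Sal 1 lay apart, and DG Sal 4.18, 3.26, 7.45 and 1.21 CPM. METH libraries held 7.85, 11.7, 5.99 and 9.01 CPM in NAc, 4.96, 1.74, 2.85 and 2.15 in DG, 3.35, 7.04, 5.27 and 7.35 in CA and 5.48, 0.773, 6.02 and 2.88 in SVZ. Its channel partner Htr3b had at most 2 reads in any library.

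Htr4, a Gs-coupled receptor of striatum and hippocampus (chromosome 18, 57654290 to 57819698, plus strand), measured 13.5, 9.06, 10.96 and 19.2 CPM in NAc Sal and 21.4, 24.4, 6.40 and 22.5 CPM in NAc METH. DG Sal held 8.93, 0.725, 9.40 and 4.26 CPM and DG METH 18.2, 10.0, 8.19 and 11.8 CPM, of which only DG METH 3 fell within the range of the controls. SVZ METH held 3.13, 1.70, 3.63 and 3.20 CPM against 0.565, 20.2, 6.05 and 7.81 CPM in SVZ Sal, and CA held 12.8, 5.30, 14.8 and 6.89 CPM after saline and 5.24, 7.84, 11.4 and 8.44 CPM after METH. After METH all CA libraries lay above all SVZ libraries.

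Htr6, a Gs-coupled receptor of striatal neurons that is carried on the primary cilium (chromosome 5, 157503040 to 157518631, minus strand), followed Htr1d. It measured 31.8, 8.34, 24.7 and 15.6 CPM in NAc Sal and 1.41, 25.5, 22.6 and 27.1 CPM in SVZ Sal, against 5.31, 6.07, 11.4 and 4.18 CPM in DG Sal and 5.16, 4.68, 5.25 and 6.56 CPM in CA Sal. The 11.4 CPM belonged to DG Sal 3 and the 1.41 CPM to SVZ Sal 1. After METH it measured 20.5, 23.3, 1.91 and 23.6 CPM in NAc, 11.9, 1.39, 10.1 and 2.69 in SVZ, 4.59, 6.14, 5.34 and 4.24 in DG and 4.98, 3.44, 4.16 and 2.38 in CA.

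Htr7, the other Gs-coupled receptor, was counted at 7 reads in all 32 libraries together, with at most 2 reads in a library and 0 in 26. In the annotation used for counting it lies on the unplaced sequence KL568473.1, 279960 to 399184, whose 6 genes together received 37041 reads. Counts at or under 3 reads, 0.133 to 0.280 CPM by library, allow no statement about its level, and it was tested in no comparison.

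Hippocampal regions (DG and CA) were compared with anterior regions (NAc and SVZ) by edgeR's quasi-likelihood test over all genes, with Benjamini-Hochberg adjustment (FDR), and genes that passed an FDR of 0.01 and changed more than 2-fold were called. In METH libraries, 2 of 9 receptors tested were called. Htr1a was higher in the hippocampal regions by a log2 fold change of 2.43 ± 0.40 (SE, edgeR FDR = 0.000725), where 2.7% of all genes were called higher, and Htr1d was lower, at -2.95 ± 0.48 (FDR = 0.000587), where 1.97% were called lower. Htr1d had only 1 to 9 reads in the DG METH libraries and 3 to 22 in the CA METH libraries. In both treatments it passed the filter on low counts through the anterior libraries, where it was high. Its fold changes and calls between these regions therefore rest on few hippocampal reads and on that filter. Htr6 did not pass, at -1.32 ± 0.47 (FDR = 0.0475), and 3 of 9 had an unadjusted p under 0.05 (15.8% of all genes higher and 25.2% lower). In saline libraries 0 of 9 receptors were called by edgeR and 3 by DESeq2, where 0.619% and 0.38% of all genes were called higher and lower by edgeR and 4.07% in either direction by DESeq2, and 5 of 9 had an unadjusted p under 0.05 (12.8% of all genes higher and 16.8% lower). These were Htr1a at 1.90 ± 0.48 (FDR = 0.0219), Htr1d at -2.63 ± 0.74 (FDR = 0.0324), Htr6 at -1.72 ± 0.44 (FDR = 0.0244), Htr1b at -1.17 ± 0.40 (FDR = 0.0677) and Htr1f at -0.87 ± 0.29 (FDR = 0.0613). The median of the 9 receptors was -0.87 in saline and -0.53 in METH, beside -0.05 and -0.08 over all genes tested. Striatal neuron markers moved with these results: 7 of 8 were called lower in METH libraries (median -3.33) and 1 of 8 in saline (median -3.44, all 8 at an unadjusted p under 0.05). Pallial neuron markers were called higher for 4 of 6 in METH libraries (median 2.94) and for 0 of 6 in saline (median 3.54). CA pyramidal markers, of which 3 of 6 were tested, had a median of 1.15 in METH libraries (1 called higher) and -0.04 in saline (0 called). Choroid plexus markers had medians of 0.83 in METH libraries and 3.19 in saline, with 0 of 8 called in each. The part of these markers in the receptor values was not tested. The test treats the 16 libraries of a treatment as independent, although regions may share rats. In bulk tissue fewer cells of a type and less RNA per cell cannot be told apart.

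Without the 5 libraries whose neuron markers stood apart, 5 of 9 receptors were called in saline, where the share of all genes called rose from 0.999% to 5.72% in either direction. Htr6 then stood at -2.12 ± 0.24 (edgeR FDR = 9.2e-05), Htr1d at -3.67 ± 0.45 (FDR = 0.000173), Htr3a at -1.22 (FDR = 0.00241), Htr1b at -1.52 (FDR = 0.00284) and Htr1f at -1.10 (FDR = 0.00713), while Htr1a stood at 1.81 ± 0.47 (FDR = 0.0139). In METH libraries Htr1a and Htr1d were called as before and Htr6 in addition, at -1.89 ± 0.15 (FDR = 1.25e-05), where 4.65% of all genes were called. These libraries were left out after the data were seen and by markers of the regions compared, so a wider gap between regions is in part set by that choice. Leaving out SVZ Sal 1 alone gave 3 calls in saline (Htr1b, Htr1d and Htr6, with 2.84% of all genes called), leaving out DG Sal 3 alone gave 1 (Htr1d, with 3.78%), and leaving out NAc METH 3 alone added Htr6 in METH at an FDR of 0.0083 (with 4.63%).

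**Figure D4:**
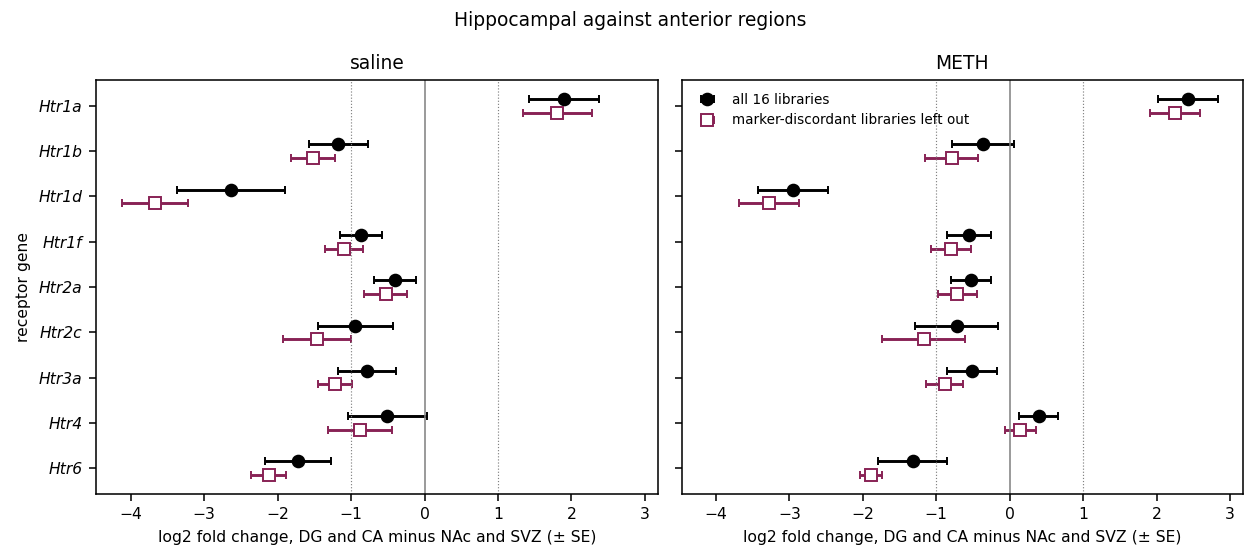
Log2 fold change of DG and CA minus NAc and SVZ (horizontal axis, bars are ± SE) for 9 receptors in saline and in METH libraries, with all libraries (black) and without the libraries whose neuron markers stood apart (open squares), and dotted lines at a 2-fold change. Htr1a lay to the right (1.90 and 2.43) and Htr1d farthest to the left (-2.63 and -2.95) in both panels.

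Single regions were compared with the mean of the other regions in saline, and 0 of 9 receptors were called in each of the 4 comparisons by edgeR, while DESeq2 called 1 (Htr1a in CA, where it called 3.03% of all genes). Over all genes 0% were called in NAc and in DG, 0.226% higher and 0.0387% lower in CA, and 0.058% higher and 0.00645% lower in SVZ. At an unadjusted p under 0.05 there were 5 receptors in NAc (8.13% of all genes higher, 6.92% lower), 3 in CA (11.1% and 14.6%), 1 in SVZ (16% and 9.45%) and 0 in DG (4.72% and 2.06%). In NAc these were Htr1d at 2.15 ± 0.73, Htr6 at 1.18 ± 0.47, Htr1b at 1.09 ± 0.43 and Htr3a at 0.94 ± 0.43, and Htr1a at -1.56 ± 0.59, with edgeR FDRs of 0.23 to 0.327. In CA Htr1a stood at 1.92 ± 0.49 (FDR = 0.0339), Htr1d at -2.69 ± 0.99 (FDR = 0.108) and Htr6 at -1.38 ± 0.55 (FDR = 0.136). The NAc, CA and SVZ comparisons share libraries with each other and are not separate evidence. Without the libraries whose neuron markers stood apart, 1 receptor was called in NAc (Htr1d, with 0.744% of all genes called), 1 in CA (Htr6, with 1.61%) and 2 in SVZ (Htr1d and Htr6, with 2.05%).

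METH was compared with saline within each region, and genes that passed an FDR of 0.01 and changed more than 1.5-fold were called. No receptor was called (0 of 9 in NAc, 0 of 8 in DG, 0 of 8 in CA and 0 of 9 in SVZ, by edgeR and by DESeq2), and 0% of all genes were called by edgeR in each region. At an unadjusted p under 0.05 the receptors numbered 0 in NAc (2.42% of all genes higher, 0.968% lower), 0 in DG (6.35% and 6.42%), 2 in CA and 1 in SVZ (1.19% and 1.39%) by edgeR, and 0, 0, 3 and 2 by DESeq2. The shares of all genes are those of edgeR, and none is given for DESeq2, so its counts cannot be set against them. In CA the 2 receptors by edgeR were Htr1b, higher at 0.56 ± 0.12 (edgeR FDR = 0.669, where 4.37% of all genes had such a p and were higher), and Htr6 at -0.53 ± 0.23 (FDR = 0.688, where 2.79% were lower). In SVZ it was Htr1f at -1.19 ± 0.39 (FDR = 0.979, where 1.39% were lower). All 9 receptors tested in SVZ had a negative log2 fold change, with a median of -0.78 beside 0.02 over all genes, and the 4 METH libraries there included 2 with striatal sums under 1000 CPM against 1 of the 4 controls. The 8 striatal markers had a median of -1.33 there, the 8 choroid plexus markers 2.96 and the 6 oligodendrocyte markers 0.83, with 0 of them called, and their part in the receptor values was not tested. Without those 3 libraries Htr2c stood at 0.03 in SVZ. The other receptors tested there stayed negative in all 18 alternatives, between -1.99 (Htr6) and -0.057 (Htr1a). With the METH libraries of one header number summed, 2 METH samples against 4 controls, the 9 receptors stayed lower, with Htr1f at -1.22 ± 0.53 (FDR = 1) and 0 at an unadjusted p under 0.05. The receptors are not independent of each other, since they were measured in the same libraries.

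**Figure D5:**
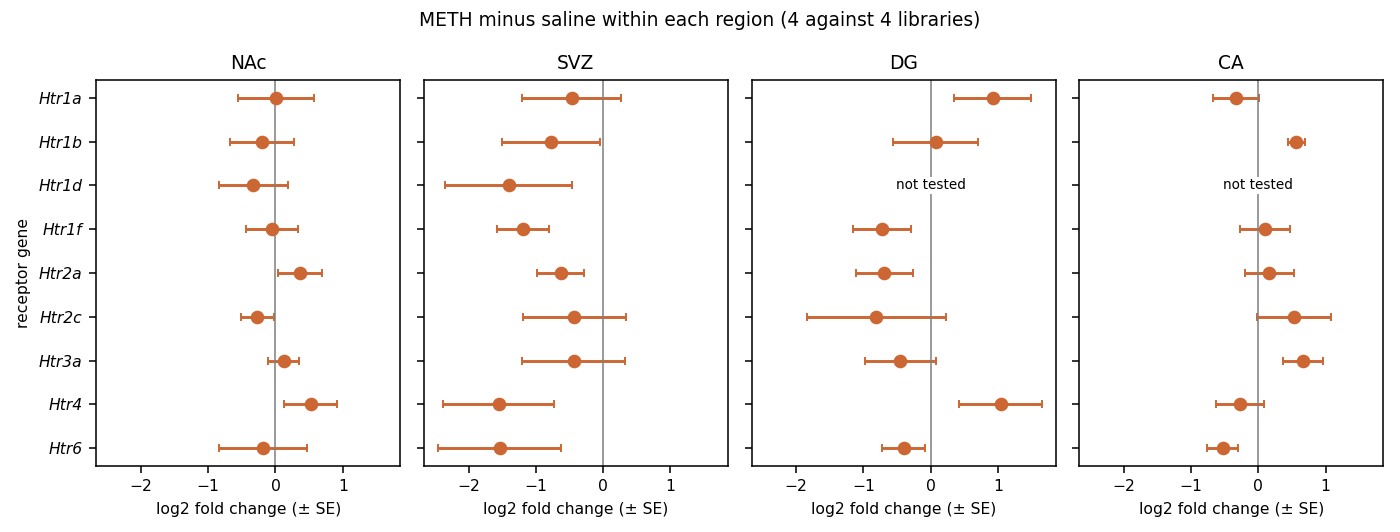
Log2 fold change of METH minus saline (horizontal axis, bars are ± SE) for 9 receptors in each region, from 4 METH and 4 Sal libraries, with Htr1d not tested in DG and CA. All points in SVZ lay left of 0, from -0.43 to -1.55, and no receptor passed an FDR of 0.01 in any region.

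Whether METH acted differently in DG than in CA was tested with an interaction term, and 0 of 9 receptors and 0% of all genes were called by edgeR (DESeq2 called 0 receptors). At an unadjusted p under 0.05 there was 1 receptor (7.26% of all genes higher and 8.11% lower), Htr1d, at -2.95 ± 1.36 (edgeR FDR = 0.317), which had 65 reads in DG Sal 3 and 1 to 22 in the other 15 DG and CA libraries, and stood at -1.31 (SE 1.175, FDR = 0.626) without DG Sal 3. Htr1a and Htr4 stood at 1.25 ± 0.72 and 1.30 ± 0.74 (DG minus CA), with FDRs of 0.43 and 0.427. Without DG samples 1 and 2 of both treatments, whose header numbers were crossed, Htr1a stood at 1.65 ± 0.68 (FDR = 0.27) and Htr4 at 0.79 ± 0.64 (FDR = 0.594) in this difference, and Htr1a at 1.32 ± 0.53 (FDR = 0.732) and Htr4 at 0.53 ± 0.47 (FDR = 0.833) in DG alone. Averaged over the 4 regions, METH minus saline was called for 0 of 9 receptors and for 0% of all genes, with Htr1d at -1.03 ± 0.46 (FDR = 0.599) and Htr1f at -0.47 ± 0.21 (FDR = 0.611) at an unadjusted p under 0.05, a range in which 4.29% of all genes were higher and 3.54% lower. Without DG Sal 3 alone Htr1d stood at -0.62 ± 0.44 (FDR = 0.777) over the 4 regions.

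The other genes of the serotonin system were taken from lists. Of the 4 other receptors, 3 were tested. Htr5b, a receptor gene active in rodents, was called higher in the hippocampal regions in METH libraries, at 4.39 ± 0.45 (edgeR FDR = 2.15e-05), and stood at 3.86 ± 0.79 in saline (FDR = 0.0104). Its CA Sal libraries held 10.96, 4.91, 20.2 and 10.2 CPM and its NAc Sal libraries 0.617, 1.37, 0.957 and 0.723 CPM. DG Sal 3 (0.757 CPM) again lay with the anterior libraries, and DG Sal 2 had 0 reads. Among 9 genes for serotonin synthesis, transport and breakdown, 7 were tested, and 1 was called, Slc22a3, a low-affinity monoamine transporter, lower in the hippocampal regions in METH libraries at -3.03 ± 0.50 (FDR = 0.00067). The serotonin transporter Slc6a4 and the neuronal hydroxylase Tph2 stayed at or under 9 and 32 reads per library. Among 27 G protein and effector genes, all were tested, and in METH libraries 4 were called higher and 3 lower in the hippocampal regions, where 2.7% and 1.97% of all genes were called. Higher were Gna14, a Gq-family subunit, at 2.90 ± 0.38, Kcnj6 and Kcnj3, subunits of the potassium channel opened by Gi/o-coupled receptors, at 2.03 ± 0.27 and 1.37 ± 0.19, and the adenylyl cyclase Adcy1 at 1.61 ± 0.31. Lower were Gnal, the Gs-like subunit of striatal neurons, at -2.35 ± 0.35, the adenylyl cyclase Adcy5 at -1.65 ± 0.34 and the phospholipase Plcb4 at -1.73 ± 0.43. In saline 2 were called higher (Gna14 and Kcnj6) and 1 lower (Adcy5), where 0.619% and 0.38% of all genes were. None of 7 genes for receptor partners and RNA editing was called in either comparison (5 had an unadjusted p under 0.05 in each, where 12.8% and 16.8% of all genes were higher and lower in saline and 15.8% and 25.2% in METH libraries). Within regions, METH minus saline gave 0 calls in all 4 lists. At an unadjusted p under 0.05, G protein and effector genes numbered 3 higher and 3 lower in DG (6.35% and 6.42% of all genes), 2 higher and 1 lower in CA (4.37% and 2.79%), 1 lower in SVZ (1.39%) and 0 in NAc.

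Over the 32 libraries, log2(CPM + 1) of Htr1d correlated with that of Htr6 (Pearson's r = 0.86), of Htr1f (0.82) and of Htr1b (0.72), and Htr6 with Htr1f (0.81). The genes most like each receptor among the 16121 others that passed the filter were Slit1 (0.938) and Plppr2 (0.934) for Htr1a, Bcr (0.870) and Dzip1l (0.863) for Htr1b, Ric8b (0.972) and Drd2 (0.955) for Htr1d, and Lrrk2 (0.867) and Osbpl8 (0.864) for Htr1f. For Htr2a they were Mark1 (0.844) and Phlda1 (0.835), for Htr2c Rxrg (0.875) and Lypd1 (0.863), for Htr3a Alcam (0.938) and Prrt4 (0.925), for Htr4 Dcc (0.889) and Flrt3 (0.847), and for Htr6 Lrrk2 (0.950) and AABR07027306.1 (0.943). These values describe libraries that differ in region, in treatment and in the cells they hold, and carry no test.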

How the data were processed

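RNA-seq of 32 libraries was used. Per the submitters' notes and file headers, the authors trimmed reads with cutadapt 2.7, mapped them with STAR 2.5.2b to rn6 and deposited raw read counts per gene from featureCounts 1.6.3 without strand (mapping quality of at least 10, Ensembl release 95 in the header, a UCSC annotation in the methods), so antisense reads and close paralogs may be miscounted. A deposited table of the whole series was not used. Members and lists were chosen with earlier results of these data known. Counts were normalized by upper quartile, filtered with filterByExpr and tested with edgeR 4.0.16 in R 4.3.3 (quasi-likelihood, Benjamini-Hochberg over all genes), with the SE taken from the F statistic. Genes named are the 10 receptors, the serotonin system lists, the 2 genes most like each receptor, genes within a receptor, and cell markers. Alternatives were TMM, DESeq2 1.42.0, no filter, RUVr factors, the replicate number or sequencing run as a factor, other sample sets and leaving out each library. Tested on simulated data with 3-fold changes, edgeR recovered 199 of 200 changed genes in NAc (14666 genes), 197 in DG (14696), 199 in CA (14490) and 199 in SVZ (15471). The simulation changed only well-counted genes, gave all genes the same spread and held no discordant libraries. It checks the procedure and does not measure power in these data, whose common coefficient of variation was 0.199 in CA and 0.373 in SVZ.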

Additional observations from a re-analysis of the deposited data

Results flagged for a closer look

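A library far from the other 3 of its group (by Dixon's test) was found in 8 of 72 pairs of receptor and group. The nominal rate of this test is about 1 in 20, for independent and normally spread values. These pairs share the same 32 libraries, CPM were used without logs, and the share over all genes was not computed. The count is therefore not read as an excess in the receptors. Htr1b in CA METH 1 was lowest of its group at 21.6 CPM, with the nearest library at 25.6 CPM. Htr1d in DG Sal 3 was highest of its group at 4.1 CPM, with the nearest library at 0.725 CPM. Htr2a in DG METH 1 was highest of its group at 30.4 CPM, with the nearest library at 10.9 CPM. Htr2c in NAc Sal 3 was highest of its group at 308 CPM, with the nearest library at 182 CPM. Htr2c in DG METH 3 was highest of its group at 185 CPM, with the nearest library at 37.7 CPM. Htr3a in SVZ Sal 1 was lowest of its group at 0.706 CPM, with the nearest library at 6.47 CPM. Htr4 in NAc METH 3 was lowest of its group at 6.4 CPM, with the nearest library at 21.4 CPM. Htr6 in NAc METH 3 was lowest of its group at 1.91 CPM, with the nearest library at 20.5 CPM. DG Sal 3, SVZ Sal 1 and NAc METH 3 also stood apart from their regions in neuron markers.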

How the results depend on the processing

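The number of receptors called was 0 in 11 of 12 comparisons, so a count that stayed at 0 says nothing about stability. It moved in 10 of 103 other settings and in 2 of 176 with 1 library left out. A change from 2 to 3 was not counted as a move. In the hippocampal comparison of METH libraries, Htr6 was called in addition in 3 of 24 alternatives. Htr1a and Htr1d in the hippocampal comparison of METH libraries were called in all alternatives. For Htr1d these alternatives rest on the same few hippocampal reads. The counts that moved were 1 receptor with 4 RUVr factors (estimates of unwanted variation) in SVZ and over the 4 regions (Htr6), 1 in CA with DESeq2, in 1 fit of 32 libraries and without the marker-discordant libraries, 1 in NAc and 2 in SVZ without those libraries, and in the hippocampal comparison in saline 3 with DESeq2, 2 in 1 fit of 32 libraries, 5 without the marker-discordant libraries and 0 to 3 with each library left out. The share of all genes called is not given here for the fits with 4 RUVr factors or for the 1 fit of 32 libraries. Receptor counts in those settings therefore cannot be set against the share over all genes. Leaving out the marker-discordant or the choroid-rich libraries was chosen after seeing the data. With the replicate number as a block (replicate block) 0 receptors were called in the comparisons of METH with saline and 2 of 9 in the hippocampal comparison of METH libraries, with Htr1a at 2.59 and Htr1d at -3.10, and in saline Htr1a stood at 1.83 (FDR = 0.0609), Htr1d at -2.88 (FDR = 0.0368) and Htr6 at -1.73 (FDR = 0.0412). Deviations of libraries with one replicate number had correlations of -0.315 to 0.439 over 48 pairs of regions in 1 treatment, 11 of them over 0.1. Over 16 pairs of Sal and METH they were -0.74 to 0.366, 6 of them over 0.1. Replicate numbers match the header numbers between NAc and CA, but not in DG 1 and 2 or in SVZ. NAc and CA gave 0.1, 0.291, 0.192 and 0.167 in Sal and 0.198, -0.039, -0.071 and 0.143 in METH. Whether these libraries share rats was not tested, nor were the causes of the changed counts.

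Single receptors turned sign in 44 of 907 cases, none of them called. In NAc, METH minus saline turned sign for Htr1a -0.025 with TMM, Htr1a -0.024 with DESeq2, Htr1a -0.013 without a filter, Htr1a -0.674, Htr1b 0.427, Htr1d 0.262, Htr1f 0.192 and Htr6 0.143 with the sequencing run as a factor, Htr1a -0.01 in 1 fit of all 32 libraries, Htr1a -0.369, Htr1b 0.088, Htr1d 0.005, Htr1f 0.255 and Htr6 0.196 without the marker-discordant libraries. In DG, METH minus saline turned sign for Htr1b -0.172 with the replicate block, Htr1b -0.501 with the sequencing run as a factor, Htr1b -0.334 without DG samples 1 and 2, Htr3a 0.06 and Htr6 0 without the marker-discordant libraries. In CA, METH minus saline turned sign for Htr1f -0.064 and Htr2a -0.034 with the sequencing run as a factor. In SVZ, METH minus saline turned sign for Htr2c 0.027 without the marker-discordant libraries. Over 4 regions, METH minus saline turned sign for Htr1a -0.014 and Htr3a 0.002 with the replicate block, Htr1a -0.002, Htr3a 0.037 and Htr4 0.064 with 2 RUVr factors, Htr1a -0.004, Htr1b 0.115, Htr2c 0.079, Htr3a 0.189 and Htr4 0.042 without the marker-discordant libraries, Htr1a -0.021 without the choroid-rich libraries, Htr3a 0.048 and Htr4 0.067 with 4 RUVr factors. For the difference of the METH effect, DG minus CA, the sign turned for Htr6 -0.188 without DG samples 1 and 2, Htr6 -0.019 without the choroid-rich libraries. For DG against the other regions in saline, the sign turned for Htr2a 0.019 with the replicate block, Htr2a 0.196 without the choroid-rich libraries. For SVZ against the other regions in saline, the sign turned for Htr2a 0.127 and Htr4 0.453 without the marker-discordant libraries, Htr4 0.012 with the replicate block. For hippocampal against anterior regions in METH, the sign turned for Htr1b 0.023 without the choroid-rich libraries, Htr4 -0.929 with NAc as the only anterior region. With 1 library left out, 62 of 1568 turned, with ranges as follows. METH minus saline in NAc gave Htr1a -0.369 to 0.328, Htr1b -0.393 to 0.27, Htr1d -0.539 to 0.014, Htr1f -0.236 to 0.255, Htr3a -0.071 to 0.26 and Htr6 -0.44 to 0.196. METH minus saline in DG gave Htr1b -0.438 to 0.403, Htr3a -0.815 to 0.06 and Htr6 -0.562 to 0. METH minus saline in CA gave Htr1f -0.232 to 0.324 and Htr2a -0.119 to 0.376. METH minus saline over 4 regions gave Htr1a -0.206 to 0.217, Htr1b -0.226 to 0.026, Htr3a -0.124 to 0.096 and Htr4 -0.17 to 0.143. The difference of the METH effect, DG minus CA gave Htr6 -0.04 to 0.523. DG against the other regions in saline gave Htr1a -0.17 to 0.889, Htr2a -0.217 to 0.14 and Htr2c -1.022 to 0.071. CA against the other regions in saline gave Htr4 -0.098 to 0.44. SVZ against the other regions in saline gave Htr2a -0.438 to 0.116, Htr3a -0.05 to 0.473 and Htr4 -0.901 to 0.339. At these depths Htr7 was in no test, and Htr1d did not pass the filter within DG alone or CA alone.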
